A study of Mus musculus with 4 samples.

Results

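Leukocyte adhesion molecules are the proteins by which white blood cells slow down, stop and cross at the wall of a blood vessel. The 8 genes described here are Icam1, Icam2, Vcam1, Selp and Sele, which make proteins of the vessel wall, and Selplg, Itgb2 and Itgam, which make the partners on the leukocyte. They were found by gene symbol among the 32285 genes listed for each library of a spatial transcriptomics study of mouse brain, and each matched a single gene. All 8 are protein-coding genes in the RefSeq annotation of GRCm38.p6. Icam1 lies on chromosome 9 from 21015940 to 21028814, and Sele and Selp lie on chromosome 1 from 164039614 to 164058487 and from 164115264 to 164150026.

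The study used Visium slides, on which barcoded spots capture the polyadenylated RNA of the tissue lying over them, with 10 µm frozen sections. A spot takes RNA from several cells, so that 2 transcripts in a spot need not come from the same cell. The 2 control libraries came from Pdcd10 fl/fl mice, in which the floxed gene is intact, and the 2 knockout libraries from Slco1c1-iCreERT2;Pdcd10 fl/fl littermates, in which the Slco1c1 promoter drives a tamoxifen-dependent Cre in brain endothelial cells. All animals had 50 µg of 4-hydroxytamoxifen on postnatal day 1, according to the study's design text, and brains were examined on day 65. Loss of Pdcd10 (Ccm3) from endothelium gives cerebral cavernous malformations, which are clusters of dilated, leaky vessels. Sample titles and design text name normoxia for both groups, but the treatment label names hypoxia for the knockouts alone, and the treatment protocol of all 4 libraries gives 12% oxygen for 2 days. If the treatment label holds, genotype and oxygen cannot be told apart here. Nothing in the labels says that the libraries of a group came from different animals, so that the p-values measure the spread between these libraries, which may be technical.

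Leukocytes are captured from flowing blood in steps. Selectins on the endothelium (Selp and Sele) bind sugars carried by PSGL-1, the product of Selplg, and let the cell roll; integrins such as Mac-1, built from the chains encoded by Itgam and Itgb2, then bind ICAM proteins and hold it, and VCAM-1 binds integrins of another family. In resting brain the vessels carry little of the inducible molecules Icam1, Selp and Sele, whose genes respond to the transcription factor NF-kB in inflammation, whereas Icam2 is made by endothelium at rest. Microglia, the resident macrophages of the brain, express Itgam, Itgb2 and Selplg too, so these genes do not mark cells from the blood alone.

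The promoters of Icam1 and Sele, both known as inducible endothelial genes, are shown because the first was measured at a higher level in the knockout libraries and the second gave almost no counts. Each is the 250 bases before a transcript start on the plus strand, from RefSeq on GRCm38.p6 (chr9:21015690-21015939 for Icam1 and chr1:164047984-164048233 for Sele), with matches to the NF-kB-like motif GGNNNTTCC on either strand in capitals. The RefSeq promoter table takes a start for Sele that lies inside the gene's annotated span given above, whose first base is further upstream, so that the Sele window and its positions refer to that inner start. The Icam1 window ends at the base before its gene's span.
Icam1: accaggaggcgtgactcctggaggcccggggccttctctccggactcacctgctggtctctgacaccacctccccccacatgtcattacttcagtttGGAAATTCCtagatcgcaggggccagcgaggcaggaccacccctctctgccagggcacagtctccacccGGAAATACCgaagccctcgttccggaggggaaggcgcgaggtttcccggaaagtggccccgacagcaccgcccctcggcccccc
Sele: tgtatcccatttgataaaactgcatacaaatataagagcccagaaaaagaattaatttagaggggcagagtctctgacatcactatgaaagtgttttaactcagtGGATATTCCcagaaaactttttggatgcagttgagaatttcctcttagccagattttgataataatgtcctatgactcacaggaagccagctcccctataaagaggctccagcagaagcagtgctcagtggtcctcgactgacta
Icam1 had 2 matches, from 153 to 145 and from 84 to 76 bases before the start, and Sele had 1, from 145 to 137 bases before it. The promoter table held 4 of the 8 members. Of the others in it, Selp had 1 match from 14 to 6 bases before its start, and Itgam had none, which says only that these letters are not in that window. The motif was present in 15.7% of the 32851 promoter windows of this length, so that a match describes the sequence and is not evidence of binding.

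Library totals ran from 50148764 to 74467027 UMIs (unique molecular identifiers, each a counted RNA molecule). Spots with at least 1000 UMIs were kept, 2931 and 4096 for the control libraries and 4599 and 4472 for the knockout libraries, and their median depth was lowest in knockout 1 (8158 UMIs) and highest in control 2 (16226.5). All 4 libraries list the same 4992 barcodes, which are those of the slide and not shared cells. Pdcd10, the gene targeted in brain endothelium, was at 90.9, 82.3, 80.3 and 83.0 CPM in control 1, control 2, knockout 1 and knockout 2, the order of libraries used throughout. CPM are UMIs per 1000000 UMIs of the kept spots. For single genes in whole sections they are scaled by the normalization factors of the fit, and other CPM are unscaled unless said. Whole-section RNA of Pdcd10 gave no check of the labels (log2 fold change -0.08, edgeR's quasi-likelihood test, Benjamini-Hochberg adjusted p = 0.410). The summed level of 14 pan-endothelial markers was 234, 241, 507 and 480 CPM, and 11 of them rose and none fell. Of 12 myeloid markers, 9 rose and none fell (488, 557, 980 and 958 CPM in sum), while 5 of 6 homeostatic microglia markers fell (107, 122, 57.9 and 59.7 CPM). Pituitary markers were at 217, 85.5, 6.84 and 6.97 CPM, and 8 fibroblast and leptomeninges markers at 233, 226, 145 and 157 CPM. Without the 5% of spots richest in these and choroid plexus markers, the whole-section calls given next for 4 members held. No marker of these lists was at 0 in every library. In whole sections, fewer cells of a type and less RNA per cell cannot be told apart.

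Summed over each section, Icam1, Icam2 and Itgb2 rose in the knockout libraries, Selplg fell, and Vcam1 and Itgam did not pass the test. Of the 8 members, 6 had enough counts to be tested; 3 of these rose, where 20.1% of all 17546 genes tested did, and 1 fell, where 18.3% did. The libraries of the groups did not overlap for the same 4 members, 3 with both knockouts above both controls (36.6% of all genes tested) and 1 with both below (35.9%). Because the kit counts the 3′ end of transcripts, levels of different genes are not set against each other.

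Icam1, the inducible receptor for the integrins of firm arrest, was counted at 1.92 and 1.89 CPM in control sections, against 6.18 and 7.46 CPM in knockout sections. Both knockouts lay far above both controls, which differed little. The mean was 3.58 times the control mean (log2 fold change 1.84, SE 0.150, n = 2 against 2, edgeR's quasi-likelihood test, adjusted p = 0.000188). A UMI of Icam1 was found in 2.90%, 2.61%, 6.46% and 10.8% of kept spots, and no spot held more than 7. After each spot was thinned to 1000 UMIs the shares were 0.273%, 0.269%, 0.652% and 0.939%, with 95% Wilson intervals of 0.138 to 0.538, 0.150 to 0.480, 0.457 to 0.930 and 0.696 to 1.27, which cover counting error only.

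Icam2, the ICAM that endothelium makes at rest, was at 4.61, 4.74, 10.7 and 10.4 CPM. The groups did not overlap, and libraries within a group were close. Its level was 2.26 times the control mean (log2 1.17, SE 0.101, edgeR adjusted p = 0.000241). Vcam1, which also has well known expression outside the endothelium, was at 22.6, 26.3, 22.7 and 23.0 CPM. Both knockouts lay between the controls, and the difference did not pass the test (log2 -0.10, SE 0.0894, edgeR adjusted p = 0.403). It was found in 27.9%, 27.8%, 21.3% and 26.0% of kept spots, and its highest count in a spot was 22 UMIs, in knockout 2.

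The endothelial selectins were close to the limit of the counts. Selp, the P-selectin stored in endothelial granules and platelets, had 0 UMIs in either control, 2 in knockout 1 and 3 in knockout 2. Sele, the E-selectin that endothelium makes on activation, had 1 UMI in control 2 and none elsewhere. Both were too low to be tested and have no fold change: 3 counts, the limit that a count of 0 allows, correspond to 0.0607, 0.0470, 0.0564 and 0.0405 CPM, or to 0.102%, 0.0732%, 0.0652% and 0.0671% of spots. Platelet markers, a second source of Selp, were at 10.9, 9.52, 10.8 and 12.7 CPM in sum, and 2 of the 5 tested rose and none fell. Of the 538, 608, 577 and 943 UMIs of this list, Itga2b gave 264, 297, 239 and 429 and Gp1bb 249, 276, 256 and 384. Ppbp was at 0.102, 0.0651, 0.519 and 0.585 CPM and Clec1b at 0.0614, 0.0814, 0.538 and 0.403 CPM.

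On the leukocyte side the members moved in different directions. Itgb2, the beta chain shared by the leukocyte integrins of this family, was at 3.07, 3.55, 8.18 and 7.38 CPM. The groups did not overlap, and the mean was 2.35 times that of the controls (log2 1.23, SE 0.131, edgeR adjusted p = 0.000605). Selplg, the selectin ligand, was at 19.3, 22.2, 14.6 and 12.6 CPM, again with no overlap, and fell to 0.655 times the control mean (log2 -0.61, SE 0.107, edgeR adjusted p = 0.00462). With every spot thinned to 1000 UMIs, which gives each spot the same weight, the call for Selplg was lost (log2 -0.22, adjusted p = 0.472). Itgam, the alpha chain of Mac-1, was at 5.18, 7.39, 6.77 and 7.42 CPM, so that the controls lay further apart than the group means (log2 0.17, SE 0.170, edgeR adjusted p = 0.461). Its value depended on single controls: without control 2 the log2 fold change was 0.46, and without control 1 it was -0.06.

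**Figure D1:**
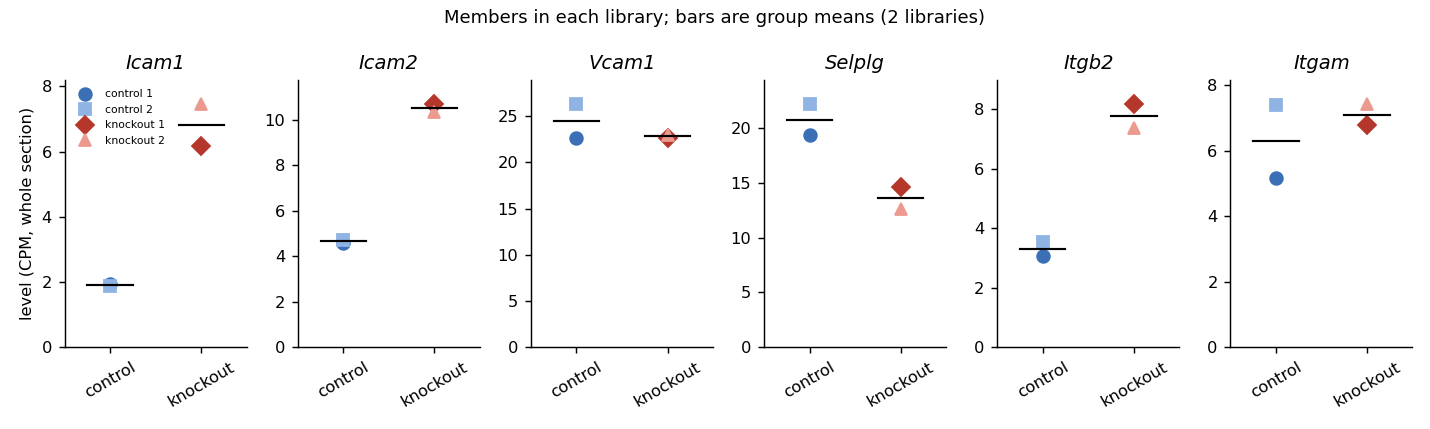
Level of the 6 members that could be tested, in CPM over all kept spots of a section (each vertical axis starts at 0), for each control (circle, square) and knockout library (diamond, triangle), with horizontal bars at the means of 2 libraries. Both knockouts sit above both controls for Icam1, Icam2 and Itgb2 and below them for Selplg, and the groups overlap for Vcam1 and Itgam.

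Added up, the 5 endothelial members came to 28.8, 31.7, 40.1 and 42.4 CPM, and the 3 leukocyte members to 27.3, 31.9, 29.9 and 28.5 CPM. The leukocyte side accordingly gave 48.6%, 50.1%, 42.7% and 40.2% of all member UMIs (95% Wilson intervals 46.8 to 50.5, 48.6 to 51.7, 41.2 to 44.3 and 38.9 to 41.5). These intervals cover counting error only, not the spread between libraries. The share serves to compare libraries, not the level of a side with that of the other. The sums are dominated by Vcam1 and Selplg, and with 2 libraries a group they were given no test.

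The same changes looked different when counted against the markers of each side. Per 1000 pan-endothelial UMIs, Icam1 had 8.12, 7.53, 12.3 and 16.1 UMIs. Icam2 had 19.4, 18.9, 21.4 and 22.4, and Vcam1 had 95.4, 105, 45.3 and 49.7. Icam1 was thus higher per endothelial UMI in both knockouts, Icam2 was higher by a small step, and Vcam1 was lower. Fitted with the pan-endothelial sum as library size, the log2 changes were 0.87 for Icam1 (edgeR adjusted p = 0.000186), 0.19 for Icam2 (adjusted p = 0.198) and -1.08 for Vcam1 (adjusted p = 4.08e-08). This scaling moved the median of all genes to -0.98, so that Vcam1 lay near the median gene.

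Per 1000 myeloid UMIs, Itgb2 had 6.21, 6.12, 8.45 and 8.0 UMIs, Selplg 39.1, 38.3, 15.1 and 13.7, and Itgam 10.5, 12.8, 7.0 and 8.04. With the myeloid sum as library size Itgb2 still rose (log2 0.42, edgeR adjusted p = 0.0338), Selplg fell by 1.43 (adjusted p = 3.48e-17) and Itgam fell by 0.63 (adjusted p = 0.000524), against a median of all genes of -0.82. Markers of neutrophils, which carry Mac-1, were at 9.0, 6.87, 39.6 and 41.1 CPM in sum, and 6 of the 8 tested rose and 1 fell. Monocyte markers were at 10.5, 11.3, 19.6 and 21.2 CPM, with 3 of 5 tested higher, and lymphocyte markers at 13.8, 14.9, 8.57 and 8.40 CPM, with 1 of 4 tested lower. Of the 517, 721, 1041 and 1569 UMIs of the monocyte list, Vcan gave 459, 668, 740 and 1004. Chil3 was at 0.246, 0.163, 4.23 and 5.56 CPM and Ms4a4c at 0.348, 0.0814, 0.909 and 1.08 CPM. Ccr2, Ly6c2 and Plac8 of that list overlapped between the groups. Of the 684, 951, 456 and 623 UMIs of the lymphocyte list, Ighm alone gave 490, 705, 287 and 352. The homeostatic microglia markers given above fell with Selplg. The part of these cells in the results was not tested.

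**Figure D2:**
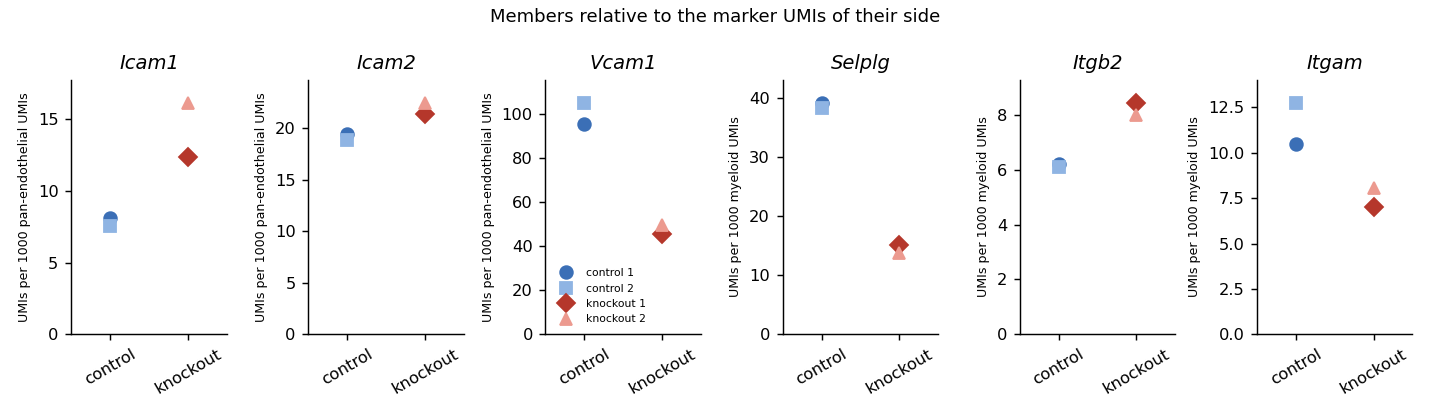
UMIs of each member per 1000 UMIs of the pan-endothelial list (Icam1, Icam2, Vcam1) or of the myeloid list (Selplg, Itgb2, Itgam) in each library, with axes from 0. Against these lists Icam1 and Itgb2 are higher in both knockouts, and Vcam1, Selplg and Itgam are lower.

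The other genes of the adhesion pathway were taken from 6 lists of 65 genes, of which 60 could be tested. Where 20.1% of all 17546 genes tested rose and 18.3% fell, 28 of these 60 rose, 8 fell and 24 did not pass. Their median log2 fold change was 0.29, and that of all genes was -0.00082. Among other selectins and selectin ligands 5 of 7 tested genes rose and none fell. Glycam1, a mucin that can carry selectin ligands, was at 0.389, 0.374, 3.56 and 3.52 CPM (log2 3.21, SE 0.190, edgeR adjusted p = 4.88e-05). Podxl, a sialomucin of endothelium, rose 2.52-fold, and Cd44, a receptor for hyaluronan, rose 2.45-fold.

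Enzymes that build selectin ligands had 4 rises and 2 falls among 9 genes tested. The sulfotransferase gene Chst2 rose from 101 ± 10.6 to 203 ± 20.1 CPM (SD, n = 2 each), the galactosyltransferase gene B4galt1 from 2.87 ± 0.409 to 6.92 ± 0.212 CPM, and Gcnt1, for the enzyme that starts core branches on mucins, from 1.43 ± 0.0901 to 3.54 ± 0.232 CPM. Immunoglobulin-family and junctional genes went both ways, with 3 rises and 5 falls among 13. Pecam1 and Esam, of endothelial junctions, rose 3.02-fold and 2.27-fold, and Mcam, found on endothelium and mural cells, fell from 16.7 ± 1.57 to 8.08 ± 0.356 CPM. Icam5, the neuronal ICAM, was among those that fell, by 0.23 on the log2 scale (edgeR adjusted p = 0.0464), and Icam4 did not pass (log2 0.10, adjusted p = 0.752); both are given as relatives of the members, after their values were seen.

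Integrin chains other than the members had 4 rises and no fall among 9. Itgad, the alpha D partner of Itgb2, rose from 1.69 ± 0.0422 to 6.47 ± 0.0531 CPM, Itga5, of the fibronectin receptor, rose 3.14-fold, and Itga6, of laminin receptors, rose 1.62-fold. Itga4, whose product pairs into the receptor for VCAM-1, did not pass (log2 0.0026, SE 0.0992, edgeR adjusted p = 0.986), nor did Itgal, the other main alpha chain for ICAM1 (log2 -0.22, SE 0.379, adjusted p = 0.681); these genes were picked out as partners of the members after their values were seen. Genes of integrin activation and linkage to the cytoskeleton had 6 rises and 1 fall among 10. Msn (moesin) rose 3.17-fold and Ezr (ezrin), both linkers of membrane proteins to actin, 3.60-fold, and Fermt3, the kindlin of blood cells, rose 2.22-fold. Among cytokines and NF-kB genes 6 of 12 rose and none fell: the TNF receptor genes Tnfrsf1a and Tnfrsf1b rose 2.57-fold and 2.34-fold and Ackr1, the chemokine-binding receptor of venules, 1.75-fold. Tnf itself, at 0, 0, 0.111 and 0.195 CPM, was too low to test.

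Whether the members lie with vessels was asked within each library. Vessel-rich spots were the 10% of a library's kept spots with the highest share of pan-endothelial UMIs (293, 410, 460 and 447 spots), a list with no member in it, and each gene was compared between them and the library's other spots. CPM values of these comparisons are scaled by the normalization factors of the fit. All 3 endothelial members tested and 2 of the 3 leukocyte members were higher in vessel-rich spots, where 16.0% of 16940 genes were higher and 13.9% lower. Icam1 was at 10.1, 10.1, 13.1 and 22.8 CPM in vessel-rich spots and at 1.49, 1.51, 5.78 and 6.48 CPM in the others. It was higher in vessel-rich spots of every library (log2 2.15 averaged over both groups, SE 0.190, edgeR adjusted p = 1.48e-08).

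Icam2 was at 13.9, 12.9, 28.5 and 49.5 CPM in vessel-rich spots and at 4.09, 4.34, 9.72 and 7.94 CPM in the others (log2 1.92, SE 0.179, edgeR adjusted p = 3.37e-08). Vcam1 was at 62.6, 67.4, 48.5 and 81.6 CPM against 20.4, 24.3, 21.2 and 19.3 CPM (log2 1.63, SE 0.108, edgeR adjusted p = 1.34e-10). For both, every library had the higher value in its vessel-rich spots, and the ratio was largest in knockout 2. The leukocyte members differed less: Selplg by 0.43 (SE 0.114, edgeR adjusted p = 0.00629), Itgam by 0.50 (SE 0.170, adjusted p = 0.0304) and Itgb2 by 0.55 (SE 0.213, adjusted p = 0.0560), with Itgb2 level in control 2 (3.51 CPM in both kinds of spot).

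Vessel-rich spots were shallow, with median depths of 7100, 1744, 3681.5 and 7111 UMIs against 16279.5, 17501.5, 8981 and 13814 in the others. Among spots of at least 5000 UMIs all 6 members were higher in vessel-rich spots, with log2 values of 1.92 for Icam1, 1.89 for Icam2 and 1.55 for Vcam1. Markers of other cell types were higher in vessel-rich spots too, by the same test: 8 of 8 for fibroblasts and leptomeninges (median log2 2.90), 6 of 6 for border macrophages (2.71), 9 of 9 for mural cells (1.58) and 12 of 12 for myeloid cells (0.73), beside 14 of 14 of the pan-endothelial markers that chose the spots (2.10). The part of these cells in the members' excess was not tested. With spots that were also myeloid-rich left out, an alternative chosen after seeing the data, the calls of Selplg (log2 0.27, adjusted p = 0.123) and Itgam (log2 0.19, adjusted p = 0.562) were lost. With every spot thinned to 1000 UMIs before the classes were drawn, which leaves few counts, no member passed: Icam2 was at 0.84 (adjusted p = 0.564), Vcam1 at 0.63 (adjusted p = 0.183) and Icam1 at -2.75 (adjusted p = 0.683). Leaving out control 1 ended the calls of Selplg and Itgam too (0.30, adjusted p = 0.131, and 0.48, adjusted p = 0.101), and leaving out control 2 or knockout 2 ended that of Itgam (adjusted p = 0.185 and 0.145).

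The level of Icam1 in vessel-rich spots was 6.76, 6.69, 2.27 and 3.52 times that of other spots, from 24, 26, 34 and 101 UMIs there. The difference between the groups in this excess did not pass (log2 -1.19, SE 0.358, edgeR adjusted p = 0.250), in a test that few genes passed (0.266% higher and 0.201% lower). It passed without knockout 2 (-1.57, adjusted p = 0.0357) and without spots richest in leptomeningeal, choroid plexus and pituitary markers (-1.50, adjusted p = 0.0367), an alternative added here after seeing the data. Outside the vessel-rich spots Icam1 was still higher in both knockouts than in both controls, by the values given above. None of the other 5 members passed this test of a difference between the groups.

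**Figure D3:**
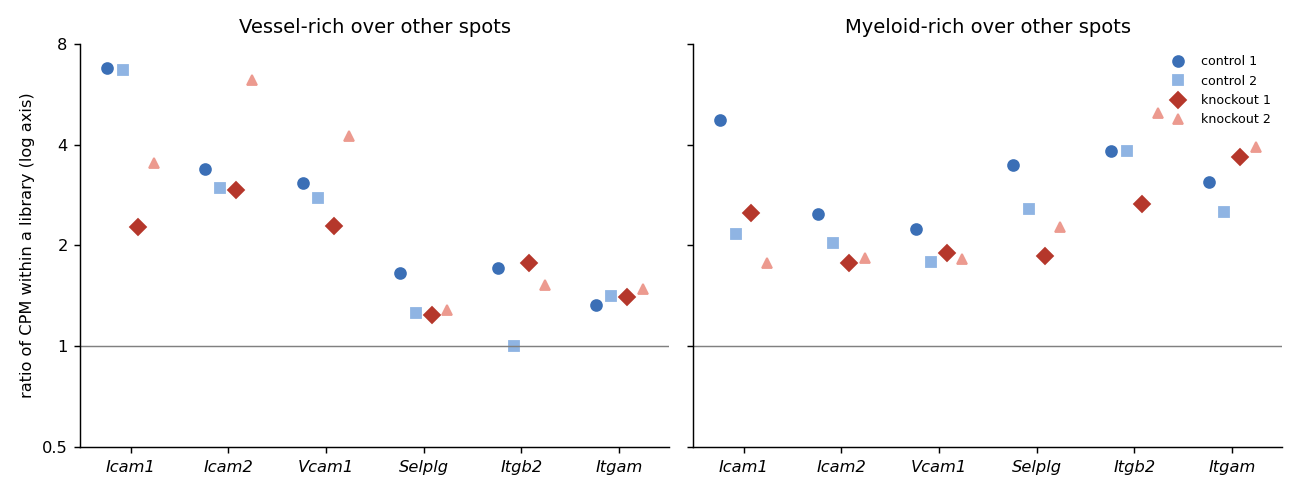
Ratio of a member's CPM in spots rich in pan-endothelial markers (left) or myeloid markers (right) to its CPM in the library's other spots, on a log axis, for each library; the line marks a ratio of 1. In vessel-rich spots Icam1, Icam2 and Vcam1 lie above 2 in every library and the leukocyte members below 2, and in myeloid-rich spots all 6 members lie above 1.7.

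All kept spots of a library were also divided into 5 equal parts from the lowest to the highest pan-endothelial share. The highest part holds the vessel-rich spots, ranked by the same share, so that it is no separate support. Icam2 went from 5.49 CPM in the lowest part to 24.9 CPM in the highest in knockout 1 and from 4.03 to 32.1 CPM in knockout 2, with each step higher than the one before. In control 1 it went from 1.93 to 9.47 CPM, and in control 2 from 5.92 to 9.20 CPM, with a dip to 2.41 CPM in the second part. Vcam1 was between 15.1 and 25.7 CPM in the lower 4 parts of every library and between 41.4 and 55.4 CPM in the highest. Selplg in the highest part was at 29.5, 25.1, 16.9 and 16.0 CPM. The lowest part of the controls held shallow spots (median 2173 and 1428.5 UMIs) with few counts, such as 3 UMIs of Icam1 in control 1.

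**Figure D4:**
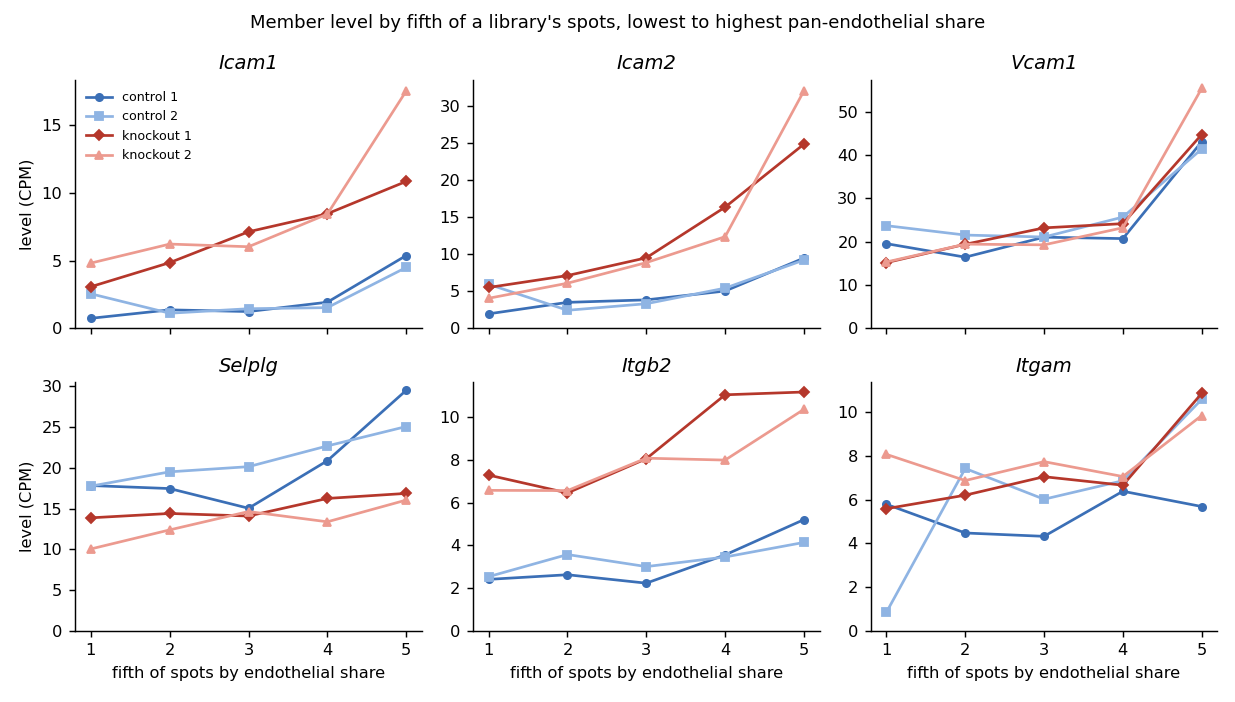
CPM of each member in 5 equal parts of a library's spots, ordered from the lowest (1) to the highest (5) share of pan-endothelial UMIs, with a line for each library and vertical axes from 0. Icam1, Icam2, Vcam1, Selplg and Itgb2 are highest in part 5 of every library, and the knockout lines of Icam2 climb to 24.9 and 32.1 CPM. For Selplg and Itgb2 the step to part 5 is small in knockout 1 (16.2 to 16.9 and 11.1 to 11.2 CPM). Itgam is highest in part 5 except in control 1, where part 4 is higher (6.38 against 5.68 CPM).

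Counted spot by spot at equal depth, the co-occurrence with endothelial transcripts was weak. After thinning to 1000 UMIs a spot, a pan-endothelial UMI was found in 22.4%, 21.0%, 43.6% and 38.0% of spots. Icam2 had a UMI in 0.610%, 0.928%, 1.40% and 1.53% of spots with an endothelial UMI and in 0.703%, 0.433%, 1.04% and 0.829% of spots without; the share was higher with it in 3 libraries of 4, and the 95% Wilson intervals overlapped in each. Pooled over the libraries, the share with an endothelial UMI was 1.53 times that without for Icam2 (0.867 to 2.14 by library), 1.30 times for Vcam1 (0.801 to 1.84) and 1.15 times for Icam1 (0.375 to 2.08). The leukocyte members gave 1.22 for Itgb2, 1.18 for Selplg and 0.873 for Itgam. At this depth only 91 spots of all 4 libraries held Icam1, so that no order among the members can be read. With a myeloid UMI as the partner, the ratios were 1.69 for Icam1, 1.2 for Icam2 and 1.06 for Vcam1, and 1.32, 1.58 and 1.59 for Selplg, Itgb2 and Itgam, so that the ratio of Icam1 was higher for the myeloid than for the endothelial partner.

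With spots of at least 5000 UMIs thinned to that number, the ratios were 1.66 for Icam1, 1.66 for Icam2 and 1.30 for Vcam1, and 1.13, 1.15 and 1.07 for Selplg, Itgb2 and Itgam. Vcam1 was above 1 in each library (1.22 to 1.40), while Icam1 ran from 0.991 in knockout 2 to 5.16 in control 1. With a myeloid partner at this depth they were 2.65 for Icam1, 1.25 for Icam2 and 1.57 for Vcam1, of which those of Icam1 and Vcam1 were above their endothelial ratios. However, 1954 of 2267, 2300 of 2557, 2799 of 2952 and 3293 of 3468 spots held a myeloid UMI. Of the 24, 25, 86 and 148 spots with Icam1, 23, 24, 83 and 146 held one. The myeloid ratio of Icam1 thus rests on few spots without a myeloid UMI, so that no order between its partners can be read. Without thinning the endothelial ratios were 4.78 to 7.67 for all 6 members, and 96.3% to 98.3% of spots with Icam1 also had an endothelial UMI, where 82.9%, 72.5%, 90.6% and 92.1% of all kept spots did. Depth was not held equal between spots in those ratios. Selp had 5 UMIs in all, 2 of them in vessel-rich spots.

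Myeloid-rich spots, the 10% with the highest share of the 12 myeloid markers, again with no member among them, were higher in all 6 members tested, where 16.9% of 16800 genes were higher and 16.7% lower. Itgb2 was at 10.0, 11.1, 19.7 and 29.8 CPM there and at 2.61, 2.91, 7.42 and 6.0 CPM elsewhere (log2 1.94, SE 0.167, edgeR adjusted p = 5.46e-08). Itgam was at 14.1, 16.5, 21.5 and 24.9 CPM against 4.56, 6.55, 5.86 and 6.32 CPM (log2 1.69, SE 0.122, adjusted p = 5.75e-09). Selplg was at 58.2, 50.5, 25.7 and 26.5 CPM in myeloid-rich spots, against 16.7, 19.6, 13.8 and 11.7 CPM elsewhere (log2 1.31, SE 0.0972, adjusted p = 7.51e-09). For these leukocyte members the ratio was above 1.8 in every library.

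The endothelial members were higher there too, Icam1 by 1.35 (SE 0.205, edgeR adjusted p = 4.62e-05), Icam2 by 1.0 (SE 0.134, adjusted p = 1.10e-05) and Vcam1 by 0.93 (SE 0.0798, adjusted p = 5.09e-08). Between 15.9% and 23.9% of vessel-rich spots were myeloid-rich as well, and without the spots in both classes the call of Icam2 was lost (log2 0.36, adjusted p = 0.107). Of other markers, 12 of 14 pan-endothelial (median log2 0.69), 6 of 6 border macrophage (2.02) and 7 of 8 fibroblast and leptomeninges genes (1.53) were higher in myeloid-rich spots, and their part in the result was not tested. Myeloid-rich spots had median depths of 9319, 7823, 4284 and 8668 UMIs, against 16256.5, 16841.5, 8757 and 13820 in the others, and after thinning to 1000 UMIs no member passed (log2 0.31 to 1.65). No member passed the test of a difference between the groups in this excess, which was passed by 3.59% of genes upwards and 3.83% downwards. Selplg came closest (log2 -0.50, SE 0.184, edgeR adjusted p = 0.118), and passed without control 2 (-0.73, adjusted p = 0.00434), in the richest 20% of spots (-0.50, adjusted p = 0.0397) and among spots of at least 5000 UMIs (-0.58, adjusted p = 0.0422).

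Vessel-rich and myeloid-rich spots were also set against each other with spots in both left out, a comparison added after seeing the data. All 3 endothelial members were higher in vessel-rich spots (3.36% of 12893 genes were) and all 3 leukocyte members in myeloid-rich spots (2.11%). Vcam1 was at 53.6, 51.8, 47.6 and 79.7 CPM in vessel-rich and at 35.8, 32.1, 39.0 and 31.6 CPM in myeloid-rich spots (log2 0.77, SE 0.134, edgeR adjusted p = 0.000740). Icam2 differed by 1.14 (SE 0.246, adjusted p = 0.00549) and was higher in the vessel-rich spots of every library. Icam1 was at 7.36, 8.05, 12.8 and 21.2 CPM in vessel-rich and at 4.59, 1.63, 14.1 and 9.33 CPM in myeloid-rich spots, so that knockout 1 went the other way (log2 1.03, SE 0.300, adjusted p = 0.0490). The calls of Icam2 and Icam1 were carried in part by single libraries: without knockout 2 neither passed (adjusted p = 0.0859 and 0.378), and without control 2 Icam1 did not (adjusted p = 0.496).

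In the same comparison Itgam was at 5.78, 6.54, 8.37 and 9.03 CPM in vessel-rich and at 15.1, 15.8, 22.5 and 25.5 CPM in myeloid-rich spots, with no overlap between the classes (log2 -1.39, SE 0.189, edgeR adjusted p = 4.20e-05). Itgb2 differed by -1.52 (SE 0.255, adjusted p = 0.000484) and Selplg by -1.0 (SE 0.128, adjusted p = 2.06e-05), and both were lower in the vessel-rich spots of every library. Of the fibroblast and leptomeninges markers, 7 of 8 were higher in the vessel-rich spots (median log2 1.56), as were 6 of 8 mural markers tested (0.92), and their part in the result was not tested. With DESeq2 in place of edgeR the 3 leukocyte calls held and the 3 endothelial ones were lost (adjusted p from 0.0738 to 0.866).

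Spots rich in other cell types placed the members further, as a description without a test. In spots rich in mural markers (pericytes and smooth muscle), Icam1 was 9.44 and 3.70 times as high as elsewhere in the controls and 2.18 and 2.72 times in the knockouts, and Vcam1 was 2.58 to 4.23 times as high over the 4 libraries. Spots rich in border macrophage markers, of macrophages along vessels and meninges, held more Itgam in the knockouts (2.02 and 2.56 times) than in the controls (0.726 and 1.04 times). The same order was seen for Itgb2 (2.02 and 2.73 against 1.54 and 1.2 times). The shift of Itgam was not particular to border macrophage spots (mean log2 ratio -0.20 in controls and 1.18 in knockouts). Spots rich in lesion endothelium (-0.0098 and 0.81), ependyma and choroid plexus (-0.039 and 0.89) or erythrocyte markers (0.22 and 0.96) had it too. Spots rich in mural (0.60 and 0.21) or lymphocyte markers (0.26 and -0.48), among others, went the other way. How many of all genes shift so was not counted. Spots rich in neutrophil markers were 186 and 234 of the kept control spots, since no more held a marker UMI, but the full 10% (460 and 447) in the knockouts, so that the class is not the same in the groups. In them Itgam was at 1.21, 1.47, 1.09 and 1.65 times and Itgb2 was at 1.45, 1.57, 1.68 and 1.19 times the other spots. In spots rich in lesion endothelium markers (Angpt2, Plvap, Procr, Esm1 and Apln), Icam2 was 2.47 and 2.20 times as high in the knockouts and 1.66 and 1.17 times in the controls, while Icam1 was at 1.52, 1.05, 1.08 and 1.39 times.

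**Figure D5:**
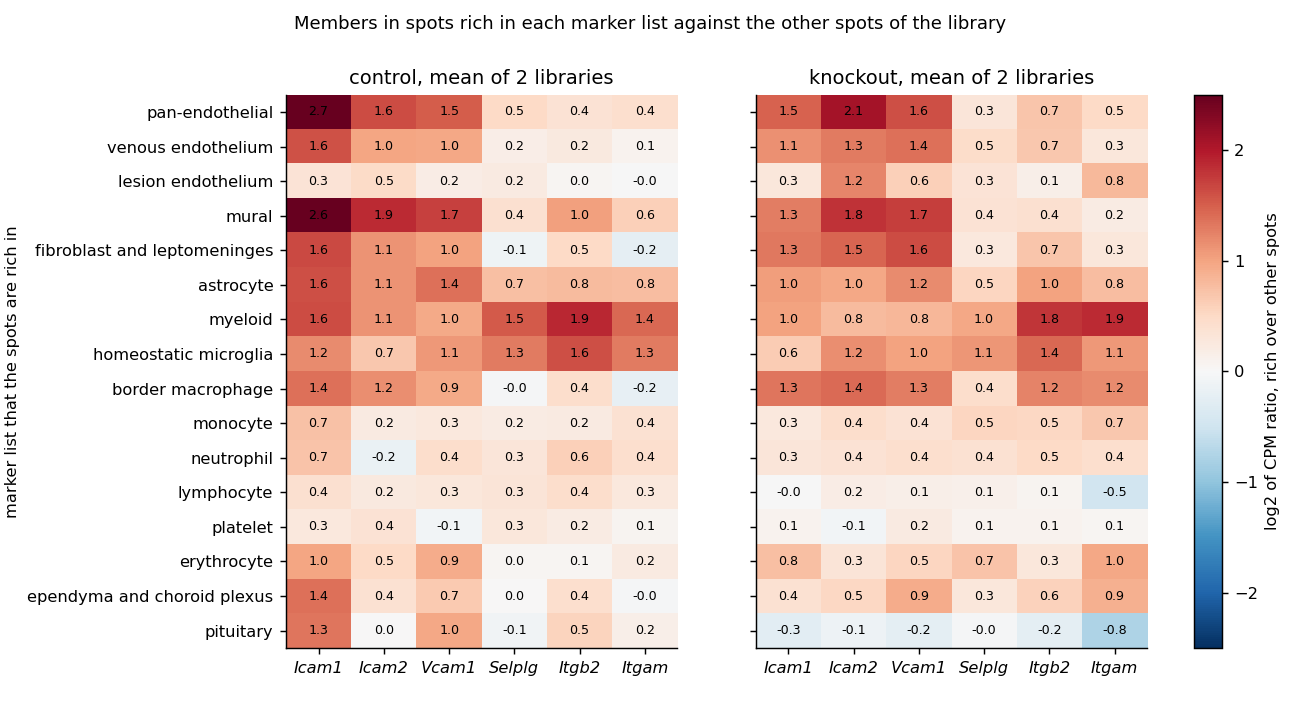
Log2 ratio of each member's CPM in spots rich in a marker list (rows) to that in the library's other spots, averaged over the 2 control (left) and the 2 knockout libraries (right); red is higher in the rich spots. Every member shown is red in the pan-endothelial, mural, myeloid, homeostatic microglia and astrocyte rows of both groups. In the pan-endothelial and mural rows of both groups, Icam1, Icam2 and Vcam1 lie above Selplg, Itgb2 and Itgam. The same order holds in both groups in the venous endothelium, fibroblast and leptomeninges, and border macrophage rows. In the last it is narrow in the knockouts (Vcam1 1.29, Itgb2 1.23). In the myeloid row of the controls, Icam1 (1.63) lies above Selplg (1.54) and Itgam (1.43) and below Itgb2 (1.89). In the astrocyte row, Icam1 is at 1.60 in controls and 1.04 in knockouts, and Vcam1 at 1.39 and 1.19.

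Genes among those most like each member over spots of at least 5000 UMIs, by Pearson correlation of log-scaled counts averaged over the 4 libraries, differed by side. Icam2 went with Ly6a (mean r 0.172), Ly6c1 (0.162) and Cldn5 (0.157), and Icam1 with Col1a2 (0.127), Vwf (0.121) and Igf2 (0.120). Vcam1 went with Apoe (0.231), Igf2 (0.222) and Col1a2 (0.221). Of these genes, Cldn5 and Vwf belong to the pan-endothelial list, and Col1a2 and Igf2 to the fibroblast and leptomeninges list. Selplg went with Csf1r (0.150) and Cst3 (0.147), Itgb2 with C1qc (0.131) and C1qb (0.121), and Itgam with Ctss (0.123) and C1qb (0.120). All of these are weak, and spots of a library share its depth and its tissue, so that they only describe which genes ranked high.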

How the data were processed

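Per the labels, 10 µm frozen brain sections of 2 control and 2 knockout libraries were measured on Visium slides. The authors deposited raw UMI counts per gene and spot; Space Ranger and mm10 are named in the submitters' processing notes, and Cell Ranger 4 per the file headers. The members and gene lists were chosen with earlier results of these data known. Spots of at least 1000 UMIs were kept and summed per library, or per library and spot class (top 10% of spots by marker share, or fewer where fewer held a marker UMI; no member used). Sums were tested with edgeR 4.0.16 in R 4.3.3 (filterByExpr, TMM factors 0.962 to 1.04 for whole sections, quasi-likelihood test, Benjamini-Hochberg adjusted p, threshold 0.05), with the library as a block in comparisons of spots, and with DESeq2 1.42.0 as an alternative. Python 3.11.15, numpy 2.4.6, scipy 1.17.1 and pandas 2.3.3 did the rest. The fits were tested on simulated data. Spots are not replicates, and spot positions were not analysed here. Named were all members, up to 3 genes with the smallest p past the threshold in each pathway list, and the 3 genes most like each member, of which some are not reported here; others are marked as picked later. The replicate numbers are shared between groups, but nothing in the labels pairs the samples. Alternatives were leaving out each library, other filters, depths, scalings and spot classes; those leaving out spots of both classes, or border spots from the spot comparisons, and the crossed pairing were chosen after seeing the data.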

Additional observations from a re-analysis of the deposited data

How the results depend on the processing

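In whole sections, thinning every spot to 1000 UMIs left 1 leukocyte member called instead of 2 and turned Vcam1 to 0.031 (log2). Scaling to myeloid UMIs turned Itgam to -0.63. Leaving out each library in turn gave -0.21 to 0.013 for Vcam1 and -0.055 to 0.46 for Itgam, with 4 to 5 members called. With the replicate number as a block, Icam1 was at 1.84, Icam2 at 1.17, Itgb2 at 1.23 and Selplg at -0.61, and the block changed no member's call; deviations of same-numbered samples correlated at -0.23, and the crossed pairing called 4208 genes higher and 3968 lower.

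In vessel-rich spots, 5 members were called, and 0 after thinning (0 of each side; Icam1 -2.75, Selplg -0.095, Itgam -0.35), 3 without spots of both classes and 3 to 5 with a library left out. The 2 leukocyte calls became 1 with DESeq2 or the top 5% of spots, 0 without spots of both classes and 0 to 2 with a library left out. For the difference between groups there, no member was called, and 1 (endothelial) without border spots; 0 to 1 with a library left out. Signs turned for Icam1 (5.84 thinned), Vcam1 (-0.16 without border spots), Selplg (0.052 without spots of both classes) and Itgb2 (-0.21 in the top 5%, -0.091 in the top 20%, -0.51 thinned). With a library left out, this difference ran from -0.11 to 0.98 for Icam2, from -0.35 to 0.54 for Vcam1, from -0.37 to 0.034 for Selplg and from -0.052 to 0.73 for Itgb2.

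In myeloid-rich spots, 6 members were called, and 0 after thinning (0 of each side). For the difference between groups, 1 member (leukocyte) passed in the top 20% and in spots of at least 5000 UMIs, and 0 to 1 with a library left out. Signs turned in the top 20% (Icam2 0.0030, Vcam1 0.22, Itgb2 0.18), thinned (Icam2 0.034, Vcam1 0.47, Selplg 0.12, Itgb2 0.73), without spots of both classes (Icam1 0.074, Vcam1 0.13), without border spots (Vcam1 0.049), with no filter (Itgb2 0.0019) and at 5000 UMIs (Itgb2 0.11). With a library left out, it ran from -0.26 to 0.061 for Vcam1 and from -0.51 to 0.38 for Itgb2. Vessel-rich against myeloid-rich spots, DESeq2 called 3 members, 0 of them endothelial, and leaving out a library gave 4 to 6 (1 to 3 endothelial). The cause was not tested in any of these.

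Of all genes, 6739 passed in whole sections and 3590 after thinning, 15165 scaled to pan-endothelial and 14472 to myeloid UMIs. In vessel-rich spots 5062 passed, 3248 with DESeq2 and 91 thinned, and in myeloid-rich spots 5633, 3626 and 161. For the difference between groups, 79 passed in vessel-rich spots, and 44 (DESeq2), 197 (no filter), 128 (top 5%), 36 (5000 UMIs), 38 (without spots of both classes), 36 to 195 (a library left out) and, by edgeR, 0 thinned (585 at an unadjusted p under 0.05); in myeloid-rich spots 1246 passed, 565 with DESeq2, 11 thinned and 735 to 1695 with a library left out. Vessel-rich against myeloid-rich, 705 passed, 203 with DESeq2 and 460 to 988 with a library left out. Without TMM factors the split of higher and lower genes was 4282 and 2258 in whole sections (3532 and 3207 with them), 2491 and 3928 in myeloid-rich spots (2834 and 2799) and 504 and 198 in the last comparison (433 and 272).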
